A study of Mus musculus with 12 samples.

Results

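Ctps encodes CTP synthase, which makes CTP from UTP with glutamine and ATP. Fads3 encodes fatty acid desaturase 3, a membrane enzyme of the front-end desaturase family. The 2 genes were followed across 12 liver libraries, each from 1 male C57BL/6J mouse, which formed the groups DOX + K35, DOX + K27, DOX and Saline, with 3 mice in each of these 4 groups. They are 2 of the 3799 genes of the expression table, which is a selection by the authors labelled as differentially expressed. Shares of all genes given below are shares of this selection, not of all mouse genes. Both are among the 3317 that were tested because their mean reached 1 FPKM (read fragments per transcript length, relative to the library). They were chosen by their measured values, because every DOX + K35 library lay outside the range of all 9 other libraries, above it for Ctps and below it for Fads3. The differences between DOX + K35 and the other groups are therefore given as a description, with no test. Only the comparisons among Saline, DOX and DOX + K27 were tested for these genes.

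All mice were 8 weeks old. The DOX, DOX + K35 and DOX + K27 groups received doxorubicin, a DNA-damaging chemotherapy drug, into the peritoneum at 10 mg/kg on day 0 and on day 7, while Saline mice were injected with saline. Intragastric vehicle, K35 at 50 mg/kg or K27 at 50 mg/kg followed in the doxorubicin mice from day 2, once every second day. Livers were collected on day 20. K35 and K27 are compounds known here by code, given at 1 matched dose and schedule, and no group received either compound without doxorubicin. The libraries coded B3 and B4 (DOX) and C4 (DOX + K35) were used by group only. The labels read vehicle, DOX, K35 and K27, and doxorubicin in the K35 and K27 mice is taken from the study's description. They give the codes B1, B2 and B3 to DOX and C1, C2 and C3 to K35, so B4 and C4 have no label. Whether the B3 of the table is the labelled B3 is not known. Nothing in the labels names litters or cages, so the spread is that between these libraries.

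Read counts were not given, and neither sequencing depth nor the counting error of a value is known. The 13 mitochondrially encoded genes took 62.2 to 83.3% of the summed FPKM in DOX, 37.9 to 48.7% in DOX + K35, and 48.2 to 68.0% in the libraries of Saline and DOX + K27 together. FPKM is a share of the library, so these amounts move every other value. Of the marker lists, the 4 hepatocyte genes in the table of 12 listed (Apoa1, Apoa2, Tat, Cps1) summed to 9263 to 12201 FPKM in DOX + K35, below the 14868 to 17580 of DOX + K27 and overlapping Saline (12082 to 13874) and DOX (11079 to 16474), and none of them was at 0. The 2 lymphocyte genes in the table of 11 listed (Cd79b, Ptprc) summed to 1.97 to 4.01 FPKM in DOX + K35, below the 4.41 to 10.9 FPKM of all other libraries. The 6 Kupffer cell genes of 11 listed summed to 53.1 to 84.3 FPKM in DOX + K35, 18.5 to 53.0 in DOX, 73.4 to 202 in Saline and 53.9 to 97.0 in DOX + K27. The 4 hemoglobin genes of 8 listed for erythroid cells summed to 62.2 to 596 FPKM in DOX + K35, below the 821 to 1135 of DOX. The 4 genes of 10 listed for stellate and endothelial cells summed to 11.2 to 12.7 FPKM in DOX + K35, above the 4.64 to 7.29 of Saline and overlapping DOX and DOX + K27. Lists for neutrophils, bile duct and dividing cells were not analysed here. The library C4 stood apart from the other DOX + K35 libraries in part, with a mitochondrial share of 48.7% against 37.9 and 39.5%, so values without it are given. The part of any of these measures in the values below was not tested unless a value is given. In whole liver, fewer cells of a type and less RNA per cell cannot be told apart.

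CTP is needed for RNA, for DNA after reduction, and for the activated intermediates CDP-choline, CDP-ethanolamine, CDP-diacylglycerol and CMP-sialic acid. Pyrimidine synthesis runs from the multienzyme protein encoded by Cad to UTP, and CTP synthase is the next step. The enzyme is inhibited by its product and assembles into filaments. The FADS enzymes add double bonds to fatty acyl chains. FADS1 and FADS2 make long polyunsaturated fatty acids, while FADS3 places a cis double bond in the sphingoid base of ceramides, so its product belongs to the sphingolipids.

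Ctps (ENSMUSG00000028633) lies on the minus strand of chromosome 4 at 120539868 to 120570276 of GRCm38. GENCODE M21 gives it 3 transcripts, of which the longest has 19 exons and 2705 bases. Fads3 (ENSMUSG00000024664) lies on the plus strand of chromosome 19 at 10041569 to 10060110, with 5 transcripts and a longest transcript of 12 exons and 3687 bases. No other annotated gene overlaps either of them. Of the 50-base words in their exons, 1% of 3401 for Ctps were shared with other genes, the predicted genes Gm16465 and Gm18699, and 0.127% of 3922 for Fads3 were shared with Fads2. The values of both genes thus rest almost wholly on exon sequence of their own.

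The 150 bases before each start site are shown as a description of the genes. Whether the elements named below have a part in the expression of either gene was not tested. Sequences are from RefSeq on GRCm38.p6, 5′ to 3′ on the strand of the gene, with matches to 5 searched motifs in capitals. The Ctps stretch is chr4:120570277-120570426 on the minus strand. The Fads3 stretch is chr19:10041419-10041568 on the plus strand and ends at the GENCODE start, and its last 21 bases lie past the RefSeq start.
Ctps: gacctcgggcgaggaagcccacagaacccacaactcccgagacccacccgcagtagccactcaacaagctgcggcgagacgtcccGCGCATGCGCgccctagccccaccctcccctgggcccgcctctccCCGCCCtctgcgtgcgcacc
Fads3: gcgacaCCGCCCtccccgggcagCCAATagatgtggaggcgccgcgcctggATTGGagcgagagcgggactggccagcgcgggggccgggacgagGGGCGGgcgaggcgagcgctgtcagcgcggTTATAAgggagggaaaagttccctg

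The motifs, chosen after the sequences had been seen, were the CCAAT box, the TATA element (letters TATAA), the GC box (letters GGGCGG), the E-box (letters CACGTG) and the element of nuclear respiratory factor NRF1 (letters GCGCATGCG), each searched on both strands in 300 bases around every RefSeq start, with overlapping matches of 1 motif counted once. Ctps held GCGCATGCG at 2 places, at base -65 from the start and at base 31 after it, against 1.75% of 32851 promoters that hold it. It held GGGCGG once, at -20, and no CCAAT box, no TATA element and no E-box in this window. Fads3 held CCAAT at -127 and -99 (37.4% of promoters), GGGCGG at -144 and -55 (35.7%) and TATAA at -25 (24.9%), counted from the GENCODE start. It held no E-box (7.15%) and no NRF1 element. The GC box was the only searched motif in both. GC content of the windows was 68.3% for Ctps and 73% for Fads3.

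Ctps was low in every group but DOX + K35. Its FPKM was 0.606, 0.454 and 0.642 in the Saline libraries, and 0.740, 1.08 and 0.324 in the DOX libraries. It was 0.672, 0.856 and 0.707 in DOX + K27. In DOX + K35 it was 2.73, 2.02 and 3.08, and the highest other library was the DOX library B3, at 1.08. Group means were 0.568 ± 0.0997, 0.714 ± 0.377, 2.61 ± 0.538 and 0.745 ± 0.0979 FPKM (SD, n = 3) for Saline, DOX, DOX + K35 and DOX + K27. The DOX + K35 mean was 4.60 times that of Saline, 3.66 times that of DOX and 3.50 times that of DOX + K27. On the log2(FPKM + 1) scale, which understates changes of low genes, the differences were 1.19, 1.09 and 1.04. In FPKM the spread was widest in DOX + K35.

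The low level of Ctps limits these values. In Saline, DOX and DOX + K27 between 7.37 and 8.05% of the table's genes had a lower mean, against 32.8% in DOX + K35. Its mean over the 9 other libraries was 0.675 FPKM, so it passed the filter on low values only through the DOX + K35 libraries. The filter does not alter the values of a gene, so without it the gap and the differences were the same.

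Fads3 showed the opposite arrangement at a higher level. Its FPKM was 8.60, 9.57 and 6.22 in Saline, and 6.88, 9.01 and 5.88 in DOX. It was 7.48, 14.1 and 12.4 in DOX + K27. In DOX + K35 it was 2.55, 2.65 and 1.66, below all 9 other libraries, of which the DOX library B4 was the nearest. Group means were 8.13 ± 1.72, 7.26 ± 1.60, 2.29 ± 0.546 and 11.3 ± 3.46 FPKM (SD, n = 3) in the same order of groups. The means of Saline, DOX and DOX + K27 were 3.56, 3.17 and 4.97 times that of DOX + K35. On the log2 scale the DOX + K35 mean lay below them, at differences of -1.47, -1.33 and -1.88. Fads3 stood above 61.2, 65.1 and 68.9% of the table's genes in Saline, DOX and DOX + K27, and above 30.1% in DOX + K35. In DOX + K35 the 2 genes thus had similar levels, 2.61 and 2.29 FPKM, whereas in Saline Fads3 was far higher.

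**Figure D1:**
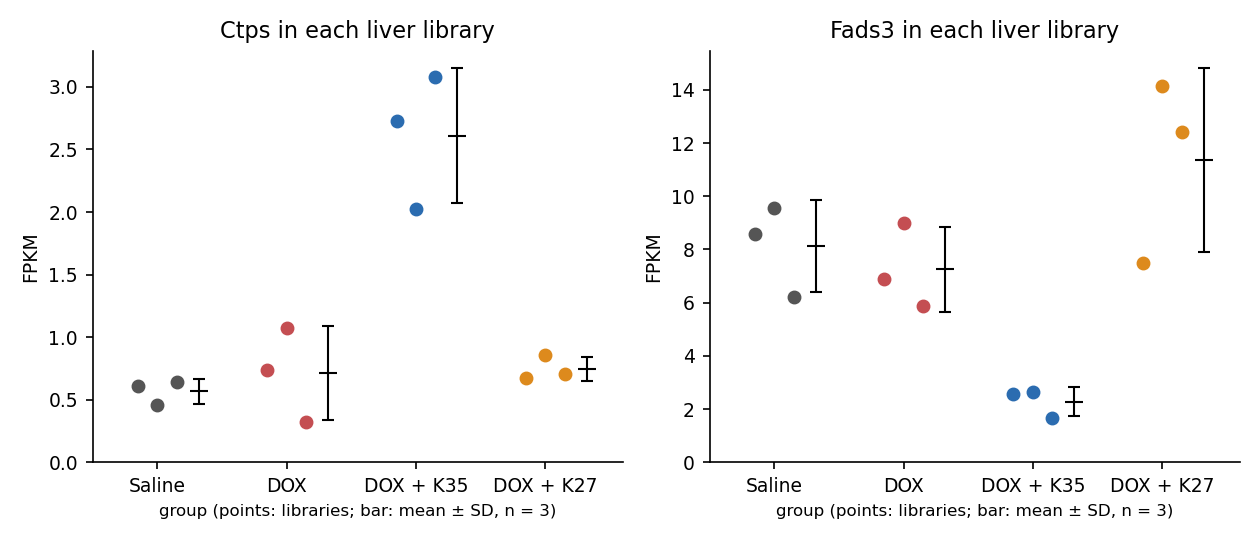
FPKM of Ctps (left) and Fads3 (right) in each liver library by group, with points for libraries and bars for the mean ± SD of 3 libraries. The DOX + K35 points lie between 2.02 and 3.08 FPKM for Ctps, above all others, and between 1.66 and 2.65 FPKM for Fads3, below all others.

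The library C4 had the highest Ctps value and the lowest Fads3 value of its group, and without it the differences from DOX were 0.99 for Ctps and -1.18 for Fads3 on the log2 scale.

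The tested comparisons ask whether doxorubicin alone, or K27 given with it, changed the 2 genes. Neither gene passed the threshold (0.05 on the p-value from limma after Benjamini-Hochberg adjustment over 3317 genes) in any of the 3 comparisons. In DOX vs. Saline 0 of 2 passed, where 0.181% of all genes did, in DOX + K27 vs. DOX 0 of 2 (0.0603% of all genes), and in DOX + K27 vs. Saline 0 of 2 (0.121%). None of the 6 unadjusted p-values was under 0.05. The Saline, DOX and DOX + K27 values took part in the choice of both genes, so these results do not show that the groups were alike.

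For Ctps the log2 change in DOX vs. Saline was 0.11 (95% interval -0.29 to 0.50, limma adjusted p = 0.649). In DOX + K27 vs. DOX it was 0.049 (-0.34 to 0.44, limma adjusted p = 0.901), and in DOX + K27 vs. Saline 0.16 (-0.24 to 0.55, limma adjusted p = 0.943). The order of the group means was Saline, DOX, DOX + K27, DOX + K35, and no test among the first 3 passed. The DOX libraries overlapped those of Saline and DOX + K27, whereas all DOX + K27 libraries lay above all Saline libraries. These libraries also took part in the choice of the gene, which lies under the filter without DOX + K35, so a p that misses the threshold does not show that the groups were alike. The sign of the difference between DOX and DOX + K27 turned negative under 3 of the 4 other scalings.

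Fads3 moved by -0.14 in DOX vs. Saline (95% interval -0.72 to 0.43, limma adjusted p = 0.675), a sign that was positive under all 4 other scalings. In DOX + K27 vs. DOX it differed by 0.56 (-0.020 to 1.13, limma adjusted p = 0.178), a value that was 0.27 with median-ratio scaling, 0.15 after quantile normalization and 0.12 after removal of the 20 highest genes. In DOX + K27 vs. Saline it differed by 0.41 (-0.16 to 0.99, limma adjusted p = 0.898). The DOX + K27 libraries were 7.48, 14.1 and 12.4 FPKM, and the lowest of them lay within the range of Saline and of DOX. The order of the group means was DOX + K35, DOX, Saline, DOX + K27, and the libraries of the last 3 overlapped.

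The arrangement that chose the 2 genes was not particular to them. All 3 DOX + K35 libraries lay above the 9 others for 586 of 3317 genes (17.7%) and below them for 127 genes (3.83%). Without library C4 these counts were 1074 and 513, and without the DOX library B4 the count below was 211. Such counts can only stay or rise when a library is left out. The size of the gap ranked the members high within these sets. It comes from the values that chose them, so the ranks are a description only. The gap is the log2 distance from the nearest DOX + K35 library to the nearest other library. It was 0.54 for Ctps, the fifth of 3317 genes upward, after Serpina3m (0.66), Mug1 (0.65), Acaca (0.62) and Shld2 (0.58). It was 0.92 for Fads3, the first downward, before Mapk15 (0.64), Naa80 (0.62), Tbc1d10a (0.60) and the assembled locus Mus_musculus_newGene_4262 (0.57).

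**Figure D2:**
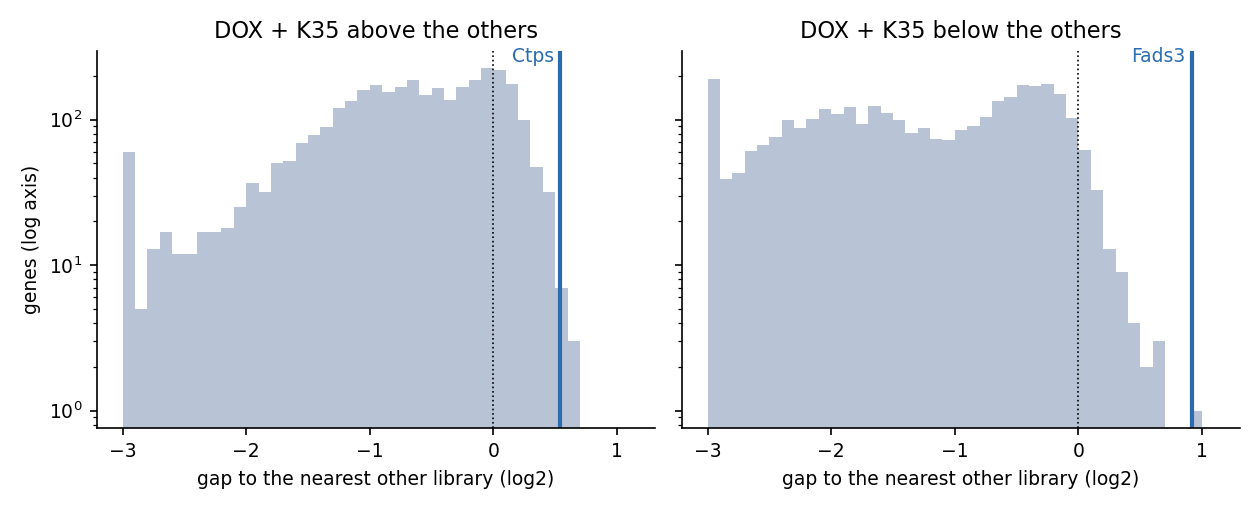
Number of genes (log axis) by the log2 gap between the DOX + K35 libraries and the nearest other library, for all 3317 genes tested, upward (left) and downward (right), with gaps under -3 drawn at -3. Genes to the right of the dotted line at 0 have all DOX + K35 libraries apart, and the blue lines mark Ctps at 0.54 and Fads3 at 0.92.

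Of the genes named by their gap, Acaca encodes acetyl-CoA carboxylase 1, which makes malonyl-CoA for fatty acid synthesis. Its FPKM was 17.2, 16.7 and 23.2 in DOX + K35, against 5.12 to 10.5 in Saline, 6.72 to 7.60 in DOX and 6.03 to 8.86 in DOX + K27. Serpina3m and Mug1 encode secreted protease inhibitors. Mapk15 encodes a protein kinase, and its FPKM was 1.33, 1.69 and 1.08 in DOX + K35 against 3.20 to 4.99 in all other libraries.

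The genes most like each member over the 12 libraries, by Pearson's r of log2(FPKM + 1), are given as a description. For Ctps they were Nol10 (0.95), Trmt61a (0.95), Ints5 (0.94), Hmgxb3 (0.93) and Abca1 (0.93). For Fads3 they were Mapk15 (0.90), Pyroxd2 (0.90), Dmac2 (0.89), Syce2 (0.88) and Hps4 (0.88). The points share their libraries and 1 of the groups sits apart, so these values mostly rank genes by how they separate DOX + K35. Nol10, a nucleolar protein of ribosome assembly, had 2.29, 2.69 and 2.98 FPKM in DOX + K35 and 0.738 to 1.69 FPKM elsewhere.

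Fads2, the neighbour of Fads3 and its closest relative in the table, did not follow it. Fads2 encodes the desaturase that starts polyunsaturated fatty acid synthesis. It lies on the opposite strand of chromosome 19 at 10062765 to 10101746, with 2654 bases between the ends of the genes. Fads1, Fads6 and the CTP synthase paralog Ctps2 were not analysed here. Fads2 had 193, 184 and 66.4 FPKM in Saline and 78.2, 58.9 and 35.6 FPKM in DOX. In DOX + K27 it had 137, 170 and 95.5 FPKM. In DOX + K35 the libraries split, with 313 and 337 FPKM in replicates 1 and 2 and 25.4 FPKM in C4, the highest and the lowest values of all libraries. Its log2 change in DOX + K35 vs. DOX was 1.34 (95% interval -0.31 to 2.98, limma adjusted p = 0.15). Without C4 it was 2.55 (limma adjusted p = 0.00557), and without DOX + K35 replicate 1 or 2 it was 0.76 or 0.71 (limma adjusted p = 0.451 or 0.498).

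The ratio of Fads2 to Fads3 is free of the scaling between libraries. It was 6.06 to 22.5 in the 9 libraries outside DOX + K35, and 123, 127 and 15.3 in DOX + K35. The library C4 thus fell in the range of the other groups for the ratio, although its Fads3 value was the lowest of all 12. Fads3 was low in all 3 DOX + K35 libraries whether Fads2 was high or low.

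**Figure D3:**
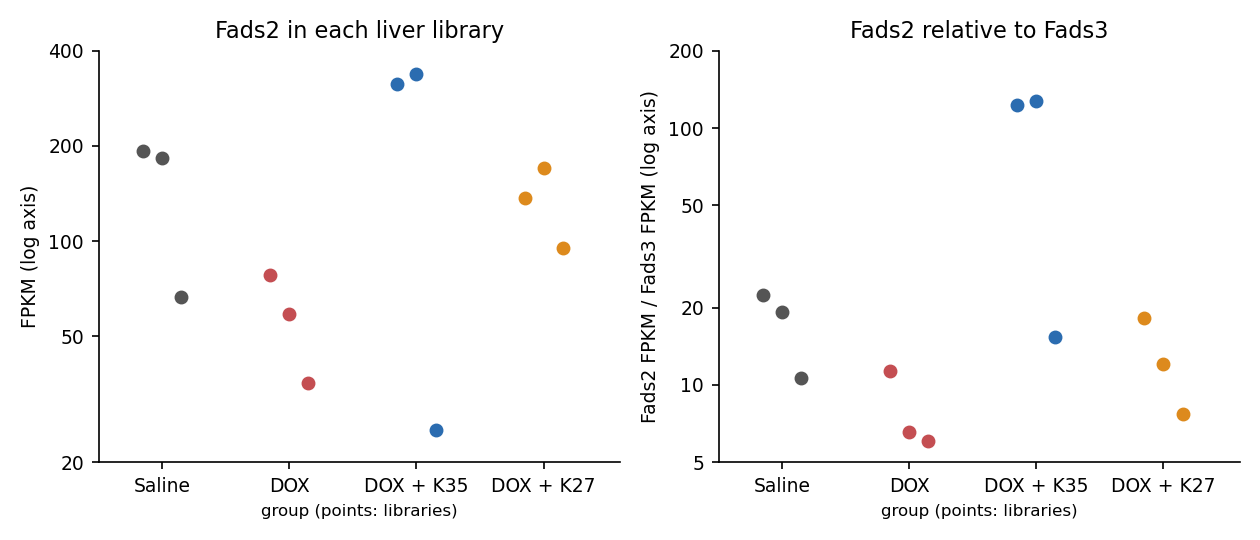
FPKM of Fads2 (left) and the ratio of Fads2 to Fads3 (right) in each liver library by group, both on log axes. DOX + K35 replicates 1 and 2 have ratios of 123 and 127 and library C4 has 15.3, within the 6.06 to 22.5 of the other groups.

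The pathways around the 2 genes were read from 6 lists of enzymes and regulators, with the members left out. Over the lists 59 genes were tested. In DOX + K35 vs. DOX 36 of 59 (limma, adjusted p under 0.05) were higher, against 46% of all genes tested, and 4 of 59 were lower, against 10.7% of all genes. The median log2 change was 1.14, against 0.46 over all genes. The split depended on the scaling. After removal of the 20 highest genes it was 21 higher and 10 lower, and over all genes it became 920 higher and 1410 lower against 1527 and 356 as deposited. The median over all genes then moved from 0.46 to -0.075, and under the other scalings to between 0.13 and 0.25. Of the 40 genes called here, 20 passed under each of the 19 alternatives and 20 failed under at least 1. Among the genes named below, those that failed under at least 1 were Dpyd, Cmpk1, Rrm2, Entpd8, Chpt1, Crls1, Hacd3, Cyb5b, Sptssa, Smpd4, Gpam, Mlxipl, Pnpla3 and Srebf2. Ctps, at 1.09, was near the median of the listed genes in this comparison, and Fads3, at -1.33, was below each of the 59. Both members were chosen by such values and the listed genes were not, so their places are a description only.

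These 59 genes had a negative median in DOX vs. Saline, at -0.80 against -0.34 over all genes, and none passed the threshold there in limma (35 of 59 had an unadjusted p under 0.05, as had 47.4% of all genes). The count past the threshold was 29 of 59 without Saline replicate 3, where 35.9% of all genes passed, and 36 of 59 without DOX replicate 1, where 44.4% did. Ctps stood at 0.11 in that comparison. In DOX + K27 vs. DOX 0 of 59 passed in limma (25 unadjusted), against 0.0603% of all genes (29.3% unadjusted), and the median was 0.69. Without DOX replicate 1, 30 of the listed genes passed, where 33.1% of all genes did. In DOX + K27 vs. Saline 0 of 59 passed in limma (1 unadjusted), against 0.121% of all genes (5.94% unadjusted), with a median of -0.12. In DOX + K35 vs. Saline 0 of 59 passed in limma, with a background of 0.0904% higher and 0.0904% lower, and the median was 0.31. There 7 of 59 had an unadjusted p under 0.05, as had 16.6% of all genes. In DOX + K35 vs. DOX + K27 1 of 59 was higher and 0 were lower in limma, with a background of 0.422% and 1.69%. There 16 of 59 had an unadjusted p under 0.05, as had 28.4% of all genes. The count past the adjusted threshold was 3 without the DOX library B4, 4 without C4 and 0 without DOX + K35 replicate 1 or 2 or DOX + K27 replicate 2. Of all genes, 8.5%, 5.55%, 0.965%, 0.724% and 0.482% passed in these fits, in the same order. With the replicate number as a block, over the 9 numbered libraries, 24 of 59 were higher and 5 lower, against 25.1% and 18.5% of all genes. The same libraries with no block gave 6 and 2, against 9.26% and 11.2%. The comparisons with DOX share the DOX libraries, so a low or high DOX value moves each of them.

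**Figure D4:**
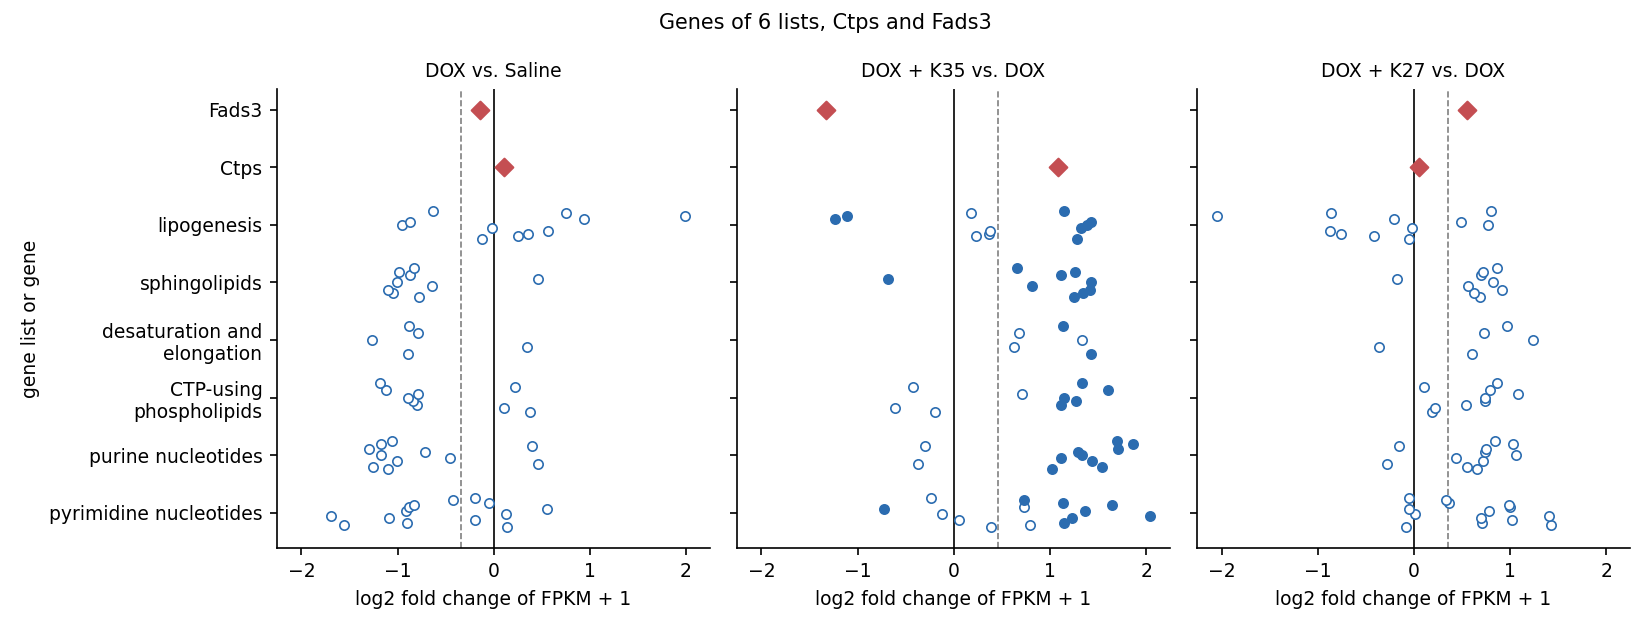
Log2 fold change of FPKM + 1 for each tested gene of 6 lists (circles, filled where adjusted p was under 0.05) and for Ctps and Fads3 (diamonds, not marked for a test) in 3 comparisons, with the median of all genes as a dashed line. In DOX + K35 vs. DOX the filled circles are mostly to the right, Ctps sits among them at 1.09 and Fads3 lies at -1.33.

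Pyrimidine metabolism, the pathway of Ctps, had 14 of 45 listed genes in the table. In DOX + K35 vs. DOX 7 were higher and 1 was lower by limma, shares near those of all genes (46% and 10.7%). Those that rose included enzymes of breakdown as well as of salvage. Dpys and Dpyd, which degrade uracil and thymine, rose by 2.04 (SE 0.55, limma adjusted p = 0.00769) and 1.23 (SE 0.37, limma adjusted p = 0.0124). Nt5e, the cell-surface nucleotidase CD73, rose by 1.64 (SE 0.34, limma adjusted p = 0.00507). Uck2, which phosphorylates uridine and cytidine and so leads to CTP by salvage, rose by 0.73 (SE 0.18, limma adjusted p = 0.00613). Cmpk1, which phosphorylates CMP and UMP, rose by 1.15, and Rrm2, a subunit of ribonucleotide reductase, by 1.14 (SE 0.39, limma adjusted p = 0.0213). The DOX + K35 libraries differed widely for Rrm2, from 1.91 to 10.1 FPKM (SD 4.68), against 0.694 to 1.63 FPKM in DOX. Entpd8, a nucleotidase of the bile canaliculus, was lower by a log2 change of -0.73 (limma adjusted p = 0.0445).

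Cad, the first enzyme of the pathway, did not pass. Its FPKM was 2.39, 1.52 and 2.70 in DOX + K35, 1.06 to 1.39 in Saline, 1.04 to 1.72 in DOX and 0.975 to 1.66 in DOX + K27, so the groups overlapped. The log2 change in DOX + K35 vs. DOX was 0.39 (95% interval -0.022 to 0.81, limma adjusted p = 0.0977). It passed after quantile normalization (0.36, limma adjusted p = 0.0421) and without DOX + K35 replicate 2 (0.56, limma adjusted p = 0.0385), and it was -0.063 after removal of the 20 highest genes (limma adjusted p = 0.762). Uck2 had 2.11, 2.22 and 1.73 FPKM in DOX + K35, above the 0.507 to 1.54 FPKM of all other libraries. No pyrimidine gene passed against Saline or DOX + K27 in limma, where 0.181% and 2.11% of all genes did. Of the 14, 3 and 4 had an unadjusted p under 0.05, against 16.6% and 28.4% of all genes. Against DOX + K27 the replicate block called Cad (0.45, limma adjusted p = 0.0449), Dpys, Entpd5 and Uck2 higher and Cda and Entpd8 lower, and quantile normalization also called Cad (0.57, limma adjusted p = 0.0457).

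Purine synthesis had 11 of 32 listed genes in the table, and 9 rose and 0 fell in DOX + K35 vs. DOX (limma), where 46% and 10.7% of all genes did. Prps1, which makes the ribose donor PRPP for both purines and pyrimidines, rose by 1.70 (SE 0.33, limma adjusted p = 0.00497). It had 15.7, 14.2 and 14.2 FPKM in DOX + K35 and less in each other library, from 1.89 FPKM in the DOX library B4 upward. Paics and Atic, enzymes of the path to IMP, rose by 1.71 and 1.44. Impdh2 and Gmps, which turn IMP into GMP, rose by 1.29 and 1.12. Gmps is, like CTP synthase, a glutamine amidotransferase.

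The pathways that use CTP for phospholipids and sialic acid had 9 of 29 listed genes in the table, and not all of these genes act on CTP itself. Of the 9, 5 rose and 0 fell in DOX + K35 vs. DOX (limma), against 46% and 10.7% of all genes. Pcyt1a, which joins CTP and phosphocholine and limits phosphatidylcholine synthesis, rose by 1.60 (SE 0.32, limma adjusted p = 0.00497). Chpt1, which uses the CDP-choline so made, rose by 1.11, and Crls1, cardiolipin synthase, by 1.15. Cmas, which activates sialic acid with CTP, rose by 1.27 (SE 0.30, limma adjusted p = 0.00581). Pcyt2, which uses CTP for CDP-ethanolamine, changed by -0.42 and did not pass (limma adjusted p = 0.24). For Pcyt1a the DOX vs. Saline change was -1.12 (limma adjusted p = 0.0612) and that in DOX + K35 vs. Saline was 0.48 (limma adjusted p = 0.443).

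Around Fads3, the list of desaturation and elongation had 5 of 24 genes in the table, and 2 rose in DOX + K35 vs. DOX (limma), a share below the 46% of all genes. They were Hacd3, a dehydratase of the elongation cycle, at 1.14 (limma adjusted p = 0.00888), and Cyb5b, an outer mitochondrial membrane cytochrome b5, at 1.43 (limma adjusted p = 0.0234). Elovl6, which lengthens saturated fatty acids, did not pass (0.62, limma adjusted p = 0.15), and its sign was negative with the 20 highest genes left out and after quantile normalization. Its DOX + K35 values of 48.2, 36.6 and 26.8 FPKM still lay above the 9.99 to 24.9 FPKM of the other libraries as deposited.

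Sphingolipid metabolism, to which the product of FADS3 belongs, had 10 of 39 genes in the table and 9 tested, of which 8 rose and 1 fell in DOX + K35 vs. DOX (limma), again beside 46% and 10.7% of all genes. Sptlc1 and Sptssa, subunits of the serine palmitoyltransferase that starts sphingoid base synthesis, rose by 1.11 and 1.26. Degs1, which puts the first double bond into the ceramide base and precedes FADS3, rose by 1.34 (SE 0.35, limma adjusted p = 0.00706). Smpd1, acid sphingomyelinase, rose by 1.43. Smpd4, a neutral sphingomyelinase, changed by -0.68 (SE 0.22, limma adjusted p = 0.0159). Fads3 thus stood at -1.33, a value that took part in its choice, where the other desaturase of the ceramide base stood at 1.34.

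Lipogenesis had 11 of 19 genes in the table, and 5 rose and 2 fell in DOX + K35 vs. DOX (limma). The share that rose was near the 46% of all genes, and 10.7% of all genes fell. Acaca rose by 1.28 (SE 0.27, limma adjusted p = 0.00531) and Gpam, the mitochondrial acyltransferase that starts glycerolipid synthesis, by 1.32 (SE 0.41, limma adjusted p = 0.0133). Acaca was the 1 listed gene that also passed in DOX + K35 vs. DOX + K27, at 1.33 (SE 0.27, limma adjusted p = 0.0271). That call was lost without any 1 of DOX + K35 replicate 1 or 2 and DOX + K27 replicate 2 or 3, with limma adjusted p-values of 0.0604, 0.06, 0.108 and 0.0778. Mlxipl, which encodes the carbohydrate-response factor ChREBP, and Pnpla3, a lipid droplet hydrolase, changed by -1.23 (limma adjusted p = 0.0149) and -1.12 (limma adjusted p = 0.0417). Pnpla3 differed by 1.99 in DOX vs. Saline (limma adjusted p = 0.0612) and by -2.05 in DOX + K27 vs. DOX (limma adjusted p = 0.106). Neither passed, and its drop was not particular to K35. Srebf2, the main regulator of cholesterol synthesis, rose by 1.15.

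All 3 DOX + K35 libraries lay above the 9 others for 9 of the 59 listed genes, against 17.7% of all genes, and below them for none, against 3.83%. The 9 were Acaca, Elovl6, Gmps, Gpam, Impdh2, Nt5e, Pnp, Prps1 and Uck2. Their arrangement was that of Ctps, and no listed gene had that of Fads3. Both counts were near those shares of all genes, so neither sets the lists apart.

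The separation of both members held under each of the other scalings, with a change in its size. The gap of Ctps was 0.34 with the mitochondrially encoded genes left out, 0.19 with the 20 highest genes left out and 0.72 after quantile normalization. The gap of Fads3 was 1.04, 1.11 and 1.01 under the same scalings. The share of the mitochondrially encoded genes was 37.9 to 48.7% in DOX + K35, and the 48.2 to 61.9% of Saline overlapped it. The gap of Fads3 was larger without these genes. The gap of Ctps was smaller without them.

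**Figure D5:**
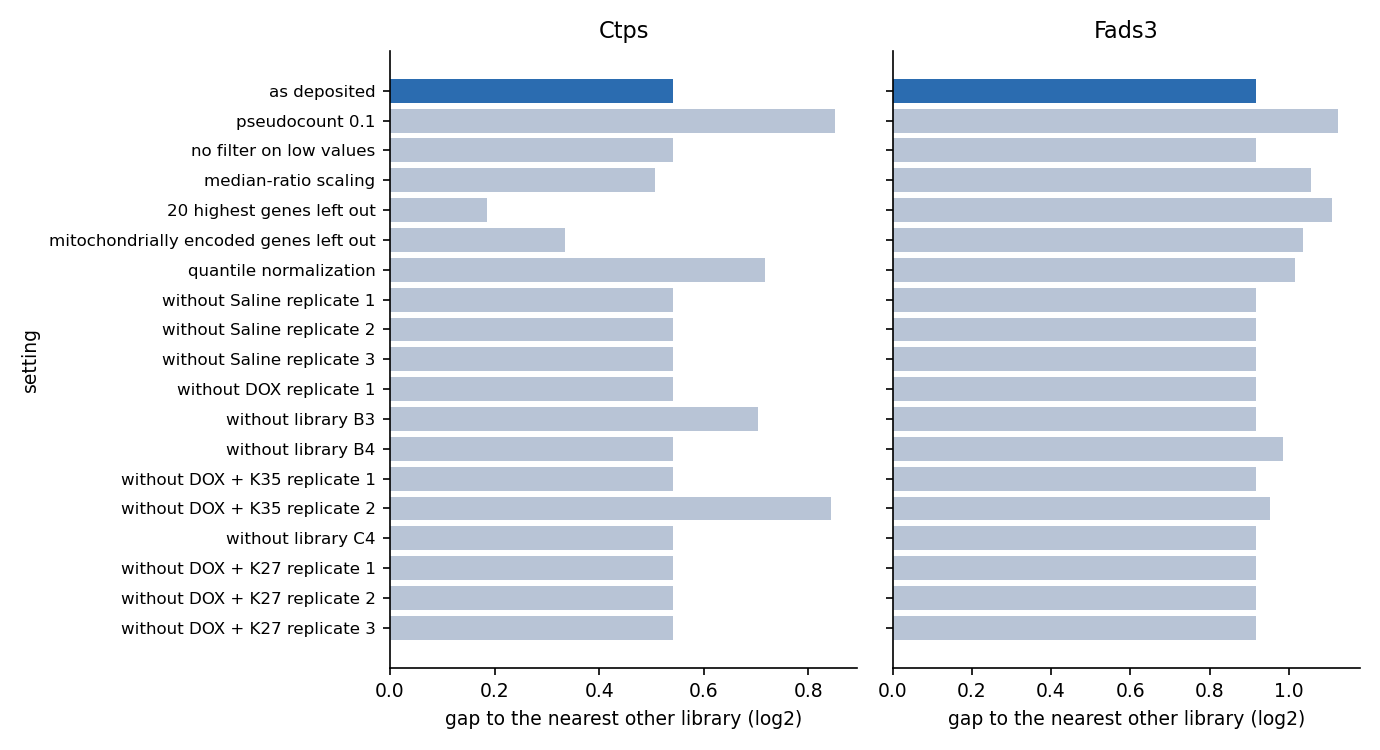
Log2 gap between the DOX + K35 libraries and the nearest other library for Ctps (left, upward) and Fads3 (right, downward) under each setting, with the values as deposited in dark blue. All bars are above 0, from 0.19 to 0.85 for Ctps and from 0.92 to 1.12 for Fads3. Leaving out a library, another pseudocount or no filter could not bring a gap under 0.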

How the data were processed

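Liver RNA was sequenced on Illumina instruments. The values the authors deposited for a selection of 3799 genes were made length-scaled per library, and they were taken here to be FPKM because the header gives no unit. The submitters' processing notes name HISAT2, DESeq2, edgeR and GRCm38 with no roles. The counting tool and filters are not given in the sources used here. No counts were present, so the planned tests took their FPKM form.

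Genes had to reach a mean of 1 FPKM. On log2(FPKM + 1) values, limma 3.58.1 (lmFit, eBayes with trend, R 4.3.3) was fitted over 12 libraries and tested on simulated data. Benjamini-Hochberg adjustment ran within each of 6 comparisons over 3317 genes, with a threshold of 0.05. These genes come from the authors' selection, so adjusted p-values and shares of all genes hold within it and not for the whole transcriptome. The members and lists were chosen with earlier results of these data known. Genes named are the members, their paralogs, up to 8 called genes per list, the 5 most similar genes and the 5 largest gaps per direction. Other genes were named after their values were seen, as Cad was. All 3519 Ensembl identifiers occur in GENCODE M21, 3517 with the same symbol.

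Alternatives comprised no filter, a pseudocount of 0.1, 4 scalings (median-ratio, quantile, the 20 highest or the mitochondrially encoded genes left out), a replicate block, fits of 2 groups and the omission of each library. Same-numbered Saline and DOX + K27 libraries came from different mice, but their deviations from the group means correlated at 0.258, 0.176 and 0.474, each over 0.1. They were treated as pairs in the replicate block only, and the main fit had no block. The correlation was not computed for libraries with different numbers, so whether a number marks a pair was not tested.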

Additional observations from a re-analysis of the deposited data

How the results depend on the processing

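Under the other scalings both members kept their DOX + K35 libraries apart, and none of their tested changes passed the threshold under any alternative. Another pseudocount or no filter cannot change the order of the libraries for a gene, so those settings could not bring them together. The table has no counts, so edgeR, DESeq2 and their scalings were not run. Depth is unknown, and 3 libraries a group limit the precision. The causes of the changes below were not tested.

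Some member changes turned sign. Ctps in DOX + K27 vs. DOX was -0.057 with median-ratio scaling, -0.14 without the 20 highest genes and -0.033 with mitochondrially encoded genes left out. With 1 library left out it ran from -0.12 (without B4) to 0.20, and in DOX vs. Saline from -0.045 (without B3) to 0.28. Fads3 in DOX vs. Saline was 0.059, 0.38 and 0.10 under the same 3 scalings and 0.25 after quantile normalization.

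Values that set DOX + K35 apart moved in size. With a pseudocount of 0.1 the Ctps gap was 0.85, its differences from DOX, Saline and DOX + K27 were 1.84, 2.01 and 1.67, and the Fads3 difference from DOX + K27 was -2.24. With the 20 highest genes left out the Ctps gap was 0.19, and the differences from DOX were 0.73 for Ctps and -1.92 for Fads3, which was -1.70 after quantile normalization. With 1 library left out the Ctps gap ran from 0.54 to 0.84. Leaving out a library can only keep or widen a gap and keep or raise the counts that follow. Such values therefore could not show a lost separation. Genes with all DOX + K35 libraries above numbered 292 with the 20 highest genes left out and 586 to 1074 with 1 library left out. Those below numbered 314, 377, 211 and 262 with median-ratio scaling, the 20 highest left out, mitochondrially encoded genes left out and quantile normalization, and 128 to 513 with 1 library left out.

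Of 59 listed genes, those called in DOX vs. Saline numbered 25, 11 and 17 with median-ratio scaling, the 20 highest left out and quantile normalization, and 0 to 36 with 1 library left out. Of all genes, 31.9, 32.4 and 23.1% were called under these scalings, and 0.0603 to 44.4% with 1 library left out. In DOX + K27 vs. DOX 1 was called with the 20 highest left out and 1 when only both groups were fitted, and 0 to 30 with 1 library left out. The shares of all genes called there were 0.212%, 0.211% and 0 to 33.1%. In DOX + K35 vs. DOX + K27 the 3 scalings called 3, 2 and 2, and leaving out 1 library 0 to 4. Of all genes, these scalings called 8.74, 7.76 and 5.52%, and leaving out 1 library 0.482 to 8.5%.

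The replicate block could be fitted over the 9 numbered libraries, with no DOX comparison, since DOX shares fewer than 2 numbers. It called 29 of 59 listed genes in DOX + K35 vs. DOX + K27, where 43.7% of all genes were called, and 1 in DOX + K35 vs. Saline, where 7.08% were. The same 9 libraries with no block, an alternative added after seeing the data, called 8 (20.4% of all genes) and 0 (0.151%). In DOX + K35 the block rests on 2 libraries. It gave Ctps 0.16 (limma adjusted p = 0.427) and Fads3 0.41 (limma adjusted p = 0.257) in DOX + K27 vs. Saline. The block called 0 listed genes there, as did the main fit with no block (limma, 1 unadjusted). Of all genes, 0% passed with the block and 0.121% in the main fit (5.94% unadjusted).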
